A study of Mus musculus with 8 samples.

Results

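The 42 genes described here act in cell division: they copy DNA, drive or restrain entry into the cell cycle, or build the mitotic spindle. They were listed by name, as known genes of replication, mitosis and their control, and all 42 were found among the 31053 genes of the deposited count table. Brown adipose tissue (BAT) of 4 WT and 4 Ucp1Δ/Δ mice was profiled by bulk RNA-seq, to compare tissue that lacks the lipase ATGL in its thermogenic adipocytes with normal tissue. Ucp1Δ/Δ mice, named ATGLKO in the labels, carry floxed alleles of Pnpla2, the gene encoding ATGL, and a Cre recombinase under the Ucp1 promoter, so the deletion is limited to cells that use that promoter and leaves Pnpla2 in the immune, vascular and stromal cells of the tissue. Both groups were male mice of the C57BL6/J background, and the labels give an age of 10 weeks to all 8 while the study's text gives a younger age. Whether WT mice carried the floxed alleles without Cre was not given in the sources used here.

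A cell that commits to divide passes from G1 into S phase, when D- and E-type cyclins with their kinases release the E2F factors from the RB protein and the genes of DNA replication are switched on. Genes of mitosis are switched on later, largely through a promoter element called CHR and neighbouring CCAAT boxes, and their transcripts are scarce in tissues whose cells rarely divide. BAT of an adult mouse consists mainly of mature, non-dividing adipocytes by mass, and the cells that can divide in it include stromal progenitors, endothelial cells and macrophages.

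Total counts were 2017697 to 3115956 per mouse, and mt-Nd4, a mitochondrially encoded gene, took 21.6% to 26.6% of them. A value of 3 counts was worth 0.933 to 1.53 CPM (counts per 1000000 of the TMM-scaled library), which covers counting error only. Pnpla2, the deleted gene, stood at 2837, 2702, 2961 and 3152 CPM in the WT mice and 514, 448, 403 and 531 CPM in the Ucp1Δ/Δ mice (adjusted p = 1.97e-07, edgeR's quasi-likelihood test). Values per mouse are given here and further on in the order of the replicate numbers. The labels name the stromal vascular fraction, but 10 markers of brown adipocytes summed to 12932 to 20806 CPM in WT and 9035 to 13430 CPM in Ucp1Δ/Δ mice, so adipocyte RNA was plentiful in every library. Summed skeletal muscle markers ran from 24.4 to 1722 CPM in WT and from 75.6 to 2310 CPM in Ucp1Δ/Δ mice.

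Most of the 42 genes were near the limit of detection. With at least 10 counts at the median library size, or 4.22 CPM on total counts before scaling, in 4 mice as the filter, 17 of them had enough counts and 25 did not. Among those 17, 4 rose in Ucp1Δ/Δ mice: Ccnd1, Top2a, Stmn1 and Mcm3. Of all 8930 genes tested, 13.3% were called higher and 7.63% lower, a call being an adjusted p under 0.05. Each of the 4 reached the filter level in at most 1 WT mouse, and Top2a and Stmn1 in none, so they were kept in the test only through their Ucp1Δ/Δ values and their number cannot be read against that background. None of the 17 was called lower by edgeR's quasi-likelihood test, although 3 (Cdk2, Cdk6 and Cdkn2c) were lower at an unadjusted p under 0.05, and DESeq2 also called none lower. The median log2FC of the 17 genes was -0.065, beside -0.0087 over all genes tested.

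**Figure D1:**
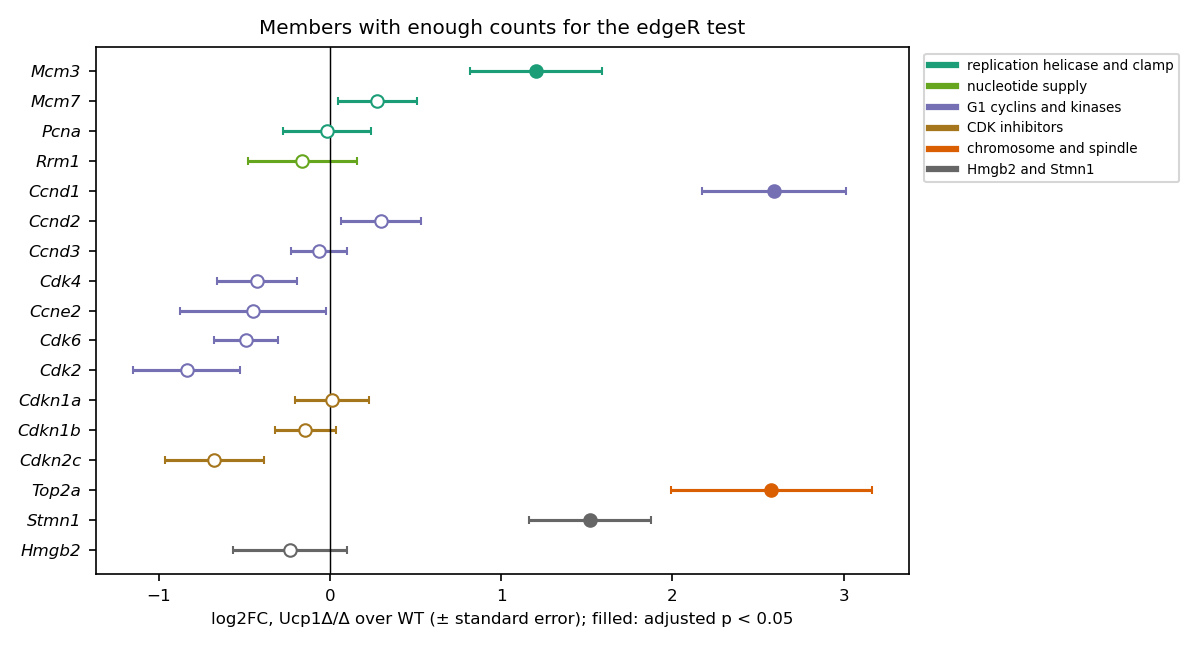
log2FC of each of the 17 members tested, Ucp1Δ/Δ over WT, with bars of 1 standard error from edgeR's quasi-likelihood test on 4 mice per genotype, coloured by role. Filled points mark the 4 genes with an adjusted p under 0.05 (Mcm3, Ccnd1, Top2a and Stmn1), which lie between 1.20 and 2.59, while the open points lie between -0.84 and 0.30.

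The 25 genes below the filter held 185 counts in all WT mice together and 521 in all Ucp1Δ/Δ mice. Their summed counts over the 8 mice ran from 0 to 71 with a median of 27. The mean CPM was higher in Ucp1Δ/Δ mice for 21 of them and lower for 3, and Bub1 was at 0 in every mouse, which allows up to 0.151 CPM over all mice. Of all 7687 genes with at least 1 count that the filter removed, 64.2% had a higher mean in Ucp1Δ/Δ mice, and 66.1% of those with at least 20 counts, so a higher mean was common among scarce genes in general. When every gene with a count was fitted, 8 of 41 members were called higher and 2 lower (edgeR's quasi-likelihood test, 9.81% and 5.31% of 16617 genes), and the median log2FC was 0.76 over those members and 0.083 over those genes. For some genes this edgeR fit gave far smaller adjusted p-values than the main one, such as 1.73e-10 in place of 0.000353 for Ccnd1. For Btg2, a p53 target at 7.30 to 53.9 CPM in the Ucp1Δ/Δ mice, it gave 3.19e-09 in place of 0.00584. For others, such as Mdm2, it gave larger ones (0.128 in place of 0.0464). Its adjusted p-values, here and further on, are not read as a measure of the spread between mice. With DESeq2, 7 of 36 members with an adjusted p were called higher and 0 lower, against 10.5% and 6.38% of 12312 genes. The 16617 genes of the edgeR fit include the 7687 removed ones, of which only 2695 held at least 20 counts. That background is unlike the members in counts, so the 8 calls are not read against it.

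**Figure D2:**
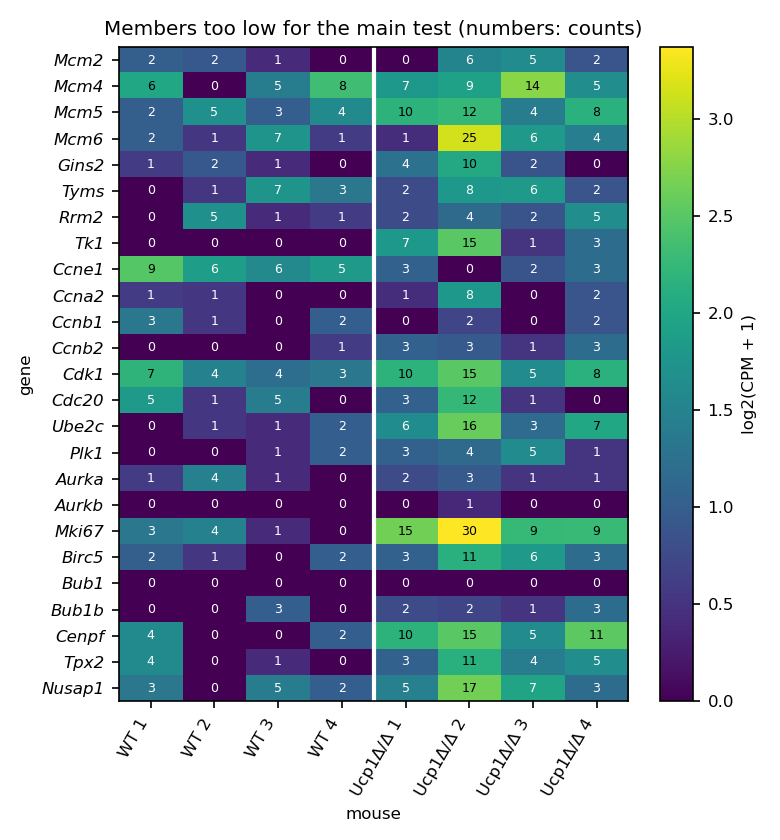
Counts per mouse of the members with too few counts for the test, 4 WT and 4 Ucp1Δ/Δ mice, printed in each cell and coloured by log2(CPM + 1). The highest value is 30 counts, for Mki67 in Ucp1Δ/Δ replicate 2, and that mouse also holds the highest count of Tk1, Cenpf, Ube2c, Mcm6 and Nusap1.

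DNA replication begins at the MCM helicase, a ring of Mcm2 to Mcm7, and the clamp encoded by Pcna holds the polymerase on DNA. Of the 8 genes of this role, 3 were tested and 1 rose. Mcm3 (ENSMUSG00000041859), a helicase subunit on chromosome 1 of mm10 from 20802968 to 20820312, stood at 2.55, 1.34, 4.01 and 6.08 CPM in the WT mice and 6.01, 10.9, 7.52 and 7.73 CPM in the Ucp1Δ/Δ mice. The means were 3.49 ± 2.04 CPM in WT and 8.04 ± 2.05 CPM in Ucp1Δ/Δ mice (SD, n = 4 each), and the 2 genotypes overlapped at WT replicate 4. The change passed edgeR's quasi-likelihood test (log2FC 1.20, standard error 0.39, adjusted p = 0.0374), but the call was lost without any of WT replicates 1, 2 and 3 or Ucp1Δ/Δ replicates 2, 3 and 4 (adjusted p 0.0617 to 0.140 in edgeR), with DESeq2 (adjusted p = 0.0718) and with the muscle marker level as a covariate (adjusted p = 0.0565 in edgeR). When single mice were left out, the call was kept only without WT replicate 4 or Ucp1Δ/Δ replicate 1.

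The other replication genes gave no call. Mcm7, the most abundant of them, was 19.3 ± 4.63 CPM in WT and 23.3 ± 5.34 CPM in Ucp1Δ/Δ mice (SD, n = 4 each, log2FC 0.28, standard error 0.23, adjusted p = 0.446 in edgeR). Pcna was 10.4 ± 2.44 CPM in WT and 10.3 ± 1.97 CPM in Ucp1Δ/Δ mice (SD, n = 4 each), and its log2FC of -0.019 changed sign with total-count scaling. Mcm4, with 54 counts the most counted helicase gene below the filter, had 6, 0, 5 and 8 counts in WT and 7, 9, 14 and 5 in Ucp1Δ/Δ mice. Mcm6 had 2, 1, 7 and 1 counts in WT and 1, 25, 6 and 4 in Ucp1Δ/Δ mice, so 25 of its 36 counts in Ucp1Δ/Δ mice came from replicate 2. Mcm2, Mcm5 and Gins2, which encodes a subunit of the GINS complex that activates the helicase, had 5, 14 and 4 counts in WT and 13, 34 and 16 counts in Ucp1Δ/Δ mice. All of these genes overlapped between genotypes.

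Nucleotide supply was represented by 4 genes. Rrm1, the large subunit of ribonucleotide reductase, was the only member tested, at 9.28 ± 3.14 CPM in WT and 8.37 ± 2.82 CPM in Ucp1Δ/Δ mice (SD, n = 4 each, log2FC -0.16, standard error 0.32, adjusted p = 0.771 in edgeR). Tk1, the thymidine kinase of S phase, had no count in any WT mouse and 7, 15, 1 and 3 counts in the Ucp1Δ/Δ mice. Set against the 3 counts over the WT group that a count of 0 allows, the pooled CPM of the Ucp1Δ/Δ mice was 7.38 times as high. That value takes the Ucp1Δ/Δ counts as exact and leaves out the spread between mice, so it is not a lower bound. Of the 26 counts in Ucp1Δ/Δ mice, 15 came from replicate 2. Tk1 was called higher when all genes with a count were fitted (edgeR's quasi-likelihood test, adjusted p = 0.000286) and by DESeq2 (adjusted p = 0.00637). Rrm2, the small subunit of the reductase, had 7 counts in WT and 13 in Ucp1Δ/Δ mice, and Tyms, thymidylate synthase, had 11 and 18.

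Summed over these 12 S phase genes, the level was 47.9, 43.5, 53.1 and 56.2 CPM in the WT mice and 58.7, 82.8, 56.8 and 69.96 CPM in the Ucp1Δ/Δ mice. The sums rested on 94, 97, 159 and 111 counts in WT and 166, 266, 136 and 163 counts in Ucp1Δ/Δ mice, of which Mcm7 gave 35.3%. Every Ucp1Δ/Δ mouse stood above every WT mouse, but the highest WT and the lowest Ucp1Δ/Δ value, 56.2 and 56.8 CPM, lay well within each other's 95% exact Poisson intervals (46.3 to 67.7 and 47.7 to 67.2 CPM). The means were 50.2 ± 5.64 and 67.1 ± 11.96 CPM (SD, n = 4 each), a ratio of 1.34, which was 1.23 without Ucp1Δ/Δ replicate 2. Without Mcm7, whose counts may hold reads of genes on the other strand, the log2 ratio of the sum was 0.50 in place of 0.42. The 8 S phase genes below the filter alone summed to 6.63 to 8.61 CPM in WT and 11.7 to 27.7 CPM in Ucp1Δ/Δ mice.

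Mitotic genes were the scarcest, and among the 17 of them Top2a alone had enough counts for the test. Top2a (ENSMUSG00000020914), a topoisomerase that untangles sister chromosomes and lies on chromosome 11 of mm10 from 98992943 to 99024189, stood at 2.04, 1.34, 0 and 2.53 CPM in the WT mice and 6.01, 15.2, 5.43 and 5.58 CPM in the Ucp1Δ/Δ mice. The means were 1.48 ± 1.10 CPM in WT and 8.07 ± 4.79 CPM in Ucp1Δ/Δ mice (SD, n = 4 each) and the genotypes did not overlap (log2FC 2.58, standard error 0.59, adjusted p = 0.00512 in edgeR's quasi-likelihood test). Ucp1Δ/Δ replicate 2 was far above the other 3 mice of its genotype, and without it the call stayed, as it did in every alternative that kept the gene in the test (adjusted p at most 0.0297 in edgeR and DESeq2).

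The proximal promoters of 4 mitotic genes show sequence elements found in many, but not all, of the mitotic members. They are given for Top2a, called in the test, for Mki67 and Cdk1, the most counted mitotic genes below the filter, and for Ube2c, called with DESeq2. Cenpf, also called with DESeq2, is not printed. The same stretch of Cenpf holds 2 CCAAT boxes but no CHR element, its only one starting at base 3 after the start. Birc5 and Nusap1 hold none of the elements marked here. Each run holds the 150 bases that end just before the annotated start, 5′ to 3′ on the strand of the gene, from RefSeq on GRCm38.p6. Capitals mark the CHR element (TTTGAA, or TTCAAA on the other strand), the CCAAT box (CCAAT, or ATTGG on the other strand) and the E2F motif (TTTNNCGC on either strand).
Top2a (chr11:99024190-99024339, minus strand): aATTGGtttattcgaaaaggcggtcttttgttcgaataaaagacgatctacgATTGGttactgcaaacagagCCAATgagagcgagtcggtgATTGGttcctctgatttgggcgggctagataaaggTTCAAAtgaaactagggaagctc
Mki67 (chr7:135716380-135716529, minus strand): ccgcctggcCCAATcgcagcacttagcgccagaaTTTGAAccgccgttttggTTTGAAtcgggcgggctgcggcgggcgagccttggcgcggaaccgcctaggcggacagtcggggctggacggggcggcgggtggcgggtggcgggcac
Cdk1 (chr10:69352913-69353062, minus strand): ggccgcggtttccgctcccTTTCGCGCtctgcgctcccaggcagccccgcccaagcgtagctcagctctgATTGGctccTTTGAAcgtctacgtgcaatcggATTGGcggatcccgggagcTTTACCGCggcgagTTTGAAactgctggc
Ube2c (chr2:164769779-164769928, plus strand): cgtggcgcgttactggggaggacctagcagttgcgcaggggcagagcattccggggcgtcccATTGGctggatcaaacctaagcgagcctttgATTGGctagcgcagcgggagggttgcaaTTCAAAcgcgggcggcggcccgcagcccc

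Counted over the stretch from 250 bases before to 50 after the start, on both strands, a CHR element was found in 10 of the 14 mitotic members with a promoter in the table (71.4%), in 1 of 10 S phase members (10%) and in 18.1% of all 27025 genes with a promoter. A CCAAT box was found in 85.7% of the mitotic members, 80% of the S phase members and 37.9% of all genes. The E2F motif was found in 7.14% of the mitotic members, all of it in Cdk1, in 50% of the S phase members and in 5.27% of all genes. Only 33 of the 42 members matched the table. None of the 3 motifs was found for Tk1, Birc5, Nusap1, Ccne1, Cdk4 or Cdkn1a. A match describes letters in the window and is not a measured binding site.

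Of the 7 chromosome and spindle genes below the filter, 6 had a higher mean in Ucp1Δ/Δ mice and Bub1 was at 0. Mki67, which encodes the Ki-67 protein that coats mitotic chromosomes, had 3, 4, 1 and 0 counts in the WT mice and 15, 30, 9 and 9 in the Ucp1Δ/Δ mice. The genotypes did not overlap, and Mki67 was called higher when all genes with a count were fitted (log2FC 2.59, standard error 0.56, adjusted p = 0.000122 in edgeR) and by DESeq2 (adjusted p = 0.00414). Cenpf, a protein of the outer kinetochore, had 4, 0, 0 and 2 counts in WT and 10, 15, 5 and 11 in Ucp1Δ/Δ mice and was also called in both (adjusted p = 0.00481 in edgeR without the filter and 0.0327 in DESeq2). Birc5, the survivin subunit of the chromosomal passenger complex, had 2, 1, 0 and 2 counts in WT and 3, 11, 6 and 3 in Ucp1Δ/Δ mice, with no overlap between genotypes in CPM and no call. Nusap1 and Tpx2, which organise spindle microtubules, had 10 and 5 counts in WT and 32 and 23 counts in Ucp1Δ/Δ mice, with overlap in CPM for both. Bub1b, a checkpoint kinase, had 3 and 8 counts.

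The cyclins, kinases and ubiquitin enzymes of mitosis were also scarce, with 51 counts over 9 genes in WT and 132 in Ucp1Δ/Δ mice, and none passed the filter. Cdk1, the kinase that starts mitosis, led with 7, 4, 4 and 3 counts in WT and 10, 15, 5 and 8 in Ucp1Δ/Δ mice, and its genotypes overlapped. Ube2c, the ubiquitin-conjugating enzyme of the anaphase-promoting complex, had 0, 1, 1 and 2 counts in WT and 6, 16, 3 and 7 in Ucp1Δ/Δ mice and was called higher in edgeR without the filter (adjusted p = 0.00900) and by DESeq2 (adjusted p = 0.0433). Its exons overlap those of the muscle gene Tnnc2 on the other strand, and whether counting used strand was not given in the sources used here. Tnnc2 had 483, 23, 6 and 230 counts in WT and 246, 1353, 34 and 393 in Ucp1Δ/Δ mice, so that within the Ucp1Δ/Δ mice both genes had the same order from lowest to highest, while WT replicate 1, with 483 counts of Tnnc2, had no count of Ube2c. The part of Tnnc2 reads in the Ube2c counts was not tested. Ccna2, Ccnb1 and Ccnb2, the A- and B-type cyclins, had 2, 6 and 1 counts in WT and 11, 4 and 10 in Ucp1Δ/Δ mice. Cdc20, an activator of the anaphase-promoting complex, had 11 and 16 counts. Its exons overlap those of Elovl1 on the other strand, which was called higher (log2FC 1.34, adjusted p = 0.000914 in edgeR). The part of Elovl1 reads in the Cdc20 counts was not tested. The kinases Plk1, Aurka and Aurkb had 3, 6 and 0 counts in WT and 13, 7 and 1 in Ucp1Δ/Δ mice. No direction can be read from counts this small, gene by gene.

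Summed over all 17 mitotic genes, the level was 18.9, 8.96, 7.35 and 10.6 CPM in the WT mice and 29.4, 61.9, 25.5 and 30.5 CPM in the Ucp1Δ/Δ mice. The sums held 37, 20, 22 and 21 counts in WT and 83, 199, 61 and 71 counts in Ucp1Δ/Δ mice, and Top2a gave 20.2% of them. Ucp1Δ/Δ mice were above WT mice without overlap, at 36.8 ± 16.9 CPM against 11.5 ± 5.12 CPM (SD, n = 4 each), a ratio of 3.21, and the ratio was 2.48 without Ucp1Δ/Δ replicate 2. The closest pair was WT replicate 1 and Ucp1Δ/Δ replicate 3, whose 95% exact Poisson intervals of 13.3 to 26.0 and 19.5 to 32.7 CPM overlapped. Ucp1Δ/Δ replicate 2 held the highest CPM of 10 of the 16 mitotic genes with a count, among them Aurkb with 1 count in all, and of 5 of the 12 S phase genes. How often this mouse was the highest over all genes was not counted, so nothing is read from these numbers.

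The genes that control entry into the cycle from G1 were better measured: 7 of the 8 were tested, 1 rose and none was called lower. Ccnd1 (ENSMUSG00000070348), encoding cyclin D1, which links growth signals to the cell cycle, lies on chromosome 7 of mm10 from 144929931 to 144939925. It stood at 3.57, 0.448, 2.004 and 5.07 CPM in the WT mice and 12.7, 22.4, 17.97 and 11.6 CPM in the Ucp1Δ/Δ mice. The lowest Ucp1Δ/Δ mouse was above the highest WT mouse by more than the whole WT range, with means of 2.77 ± 1.99 CPM in WT and 16.2 ± 4.996 CPM in Ucp1Δ/Δ mice (SD, n = 4 each, log2FC 2.59, standard error 0.42, adjusted p = 0.000353 in edgeR's quasi-likelihood test). The call held in every alternative that kept the gene in the test, with an adjusted p of at most 0.00269 in edgeR and DESeq2. Its exons overlap those of LTO1 on the other strand, which had 5 to 20 counts per mouse and overlapped between genotypes.

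The remaining G1 genes were not called. Ccnd2, the most abundant D-type cyclin here, was 92.1 ± 30.9 CPM in WT and 113 ± 22.9 CPM in Ucp1Δ/Δ mice (SD, n = 4 each, log2FC 0.30, standard error 0.23, adjusted p = 0.417 in edgeR), and Ccnd3 was 81.9 ± 4.67 CPM in WT and 78.3 ± 11.8 CPM in Ucp1Δ/Δ mice (SD, n = 4 each). Cdk6, a kinase partner of the D-type cyclins, stood at 30.1, 48.4, 40.4 and 33.9 CPM in the WT mice and 25.1, 29.2, 28.4 and 26.2 CPM in the Ucp1Δ/Δ mice. All 4 Ucp1Δ/Δ values of Cdk6 were below all 4 WT values, yet the change missed the threshold in edgeR (log2FC -0.49, standard error 0.19, adjusted p = 0.0799). Cdk2, the partner of the E-type cyclins, was 8.79 ± 2.64 CPM in WT and 4.88 ± 1.09 CPM in Ucp1Δ/Δ mice (SD, n = 4 each, log2FC -0.84, standard error 0.31, adjusted p = 0.0718 in edgeR), and it was called lower only without WT replicate 2 (adjusted p = 0.0333). Cdk4 and Ccne2 had log2FC of -0.43 and -0.45. Ccne1, an E-type cyclin below the filter, had 9, 6, 6 and 5 counts in WT and 3, 0, 2 and 3 in Ucp1Δ/Δ mice with no overlap in CPM, and was called lower in edgeR without the filter (adjusted p = 0.0427) but not by DESeq2 (adjusted p = 0.0765). Apart from Ccnd1 and Ccnd2, all 6 other genes of this role had a lower mean in Ucp1Δ/Δ mice. Over all genes tested the median log2FC was -0.0087, so a lower mean was common in general. The log2FC of Ccnd3, -0.065, became 0.078 with total counts only. Nothing is read from this count of genes.

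**Figure D3:**
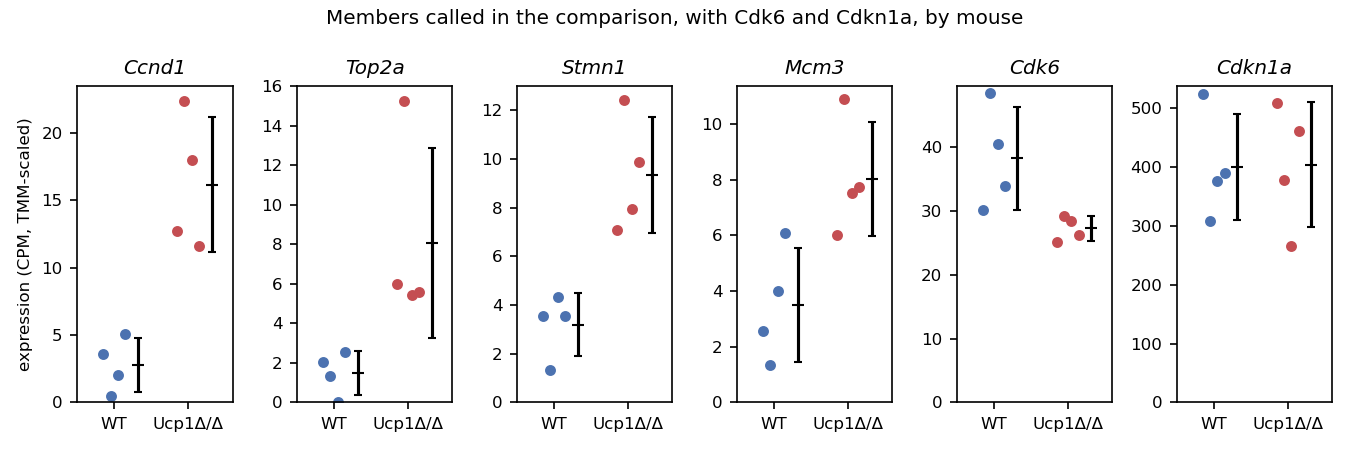
CPM of the members called higher, of Cdk6 and of Cdkn1a in each of the 4 WT and 4 Ucp1Δ/Δ mice, with the mean and SD. Ccnd1, Top2a and Stmn1 show no overlap between genotypes, Mcm3 overlaps at WT replicate 4, and Cdk6 is lower in all 4 Ucp1Δ/Δ mice without passing the test, and Cdkn1a overlaps throughout.

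All 3 inhibitors of the cyclin-dependent kinases were tested and none was called. Cdkn1a, which encodes the p21 protein that p53 induces and was the member with the highest CPM, was 400 ± 90.3 CPM in WT and 403 ± 106 CPM in Ucp1Δ/Δ mice (SD, n = 4 each), and its log2FC of 0.012 (adjusted p = 0.979 in edgeR, standard error 0.21) had a sign that changed with the scaling and the test. Cdkn1b, the p27 protein, was 39.7 ± 5.92 CPM in WT and 35.8 ± 3.62 CPM in Ucp1Δ/Δ mice (SD, n = 4 each). Cdkn2c, the p18 inhibitor of Cdk4 and Cdk6, was 32.2 ± 14.5 CPM in WT and 20.2 ± 5.59 CPM in Ucp1Δ/Δ mice (SD, n = 4 each, log2FC -0.68, standard error 0.29, adjusted p = 0.113 in edgeR). It was called lower without WT replicate 4 (adjusted p = 0.0339) and when all genes with a count were fitted (adjusted p = 0.0209).

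Stmn1 and Hmgb2 are markers of dividing and immature cells that act outside the cycle machinery. Stmn1 (ENSMUSG00000028832), a protein that destabilises microtubules, lies on chromosome 4 of mm10 from 134468320 to 134473843 and stood at 3.57, 1.34, 4.34 and 3.55 CPM in the WT mice and 7.08, 12.4, 7.94 and 9.87 CPM in the Ucp1Δ/Δ mice. The genotypes did not overlap, with means of 3.20 ± 1.29 CPM in WT and 9.33 ± 2.38 CPM in Ucp1Δ/Δ mice (SD, n = 4 each, log2FC 1.52, standard error 0.35, adjusted p = 0.00607 in edgeR), and the call held in every alternative that kept the gene in the test (adjusted p at most 0.0321 in edgeR and DESeq2). Hmgb2, a chromatin protein, was 7.30 ± 2.64 CPM in WT and 6.02 ± 1.74 CPM in Ucp1Δ/Δ mice (SD, n = 4 each, log2FC -0.23, standard error 0.33, adjusted p = 0.679 in edgeR). Stmn1, Pcna and Tyms have near-identical copies elsewhere in the mouse annotation, so reads that match a copy make their counts uncertain.

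Over all 42 members, 8 were higher and 2 lower in Ucp1Δ/Δ mice with no overlap between genotypes in CPM. Among the 17 tested these were 3 and 1, beside 14.4% and 9.37% of all genes tested. The 3 were Ccnd1, Top2a and Stmn1, which were kept in the test only through their Ucp1Δ/Δ values, so nothing is read from that count. Among the 25 below the filter the numbers were 5 and 1, beside 6.93% and 1.47% of the removed genes with a count. Only 2695 of those 7687 removed genes held at least 20 counts, while the median of the 25 members was 27. That background is unlike the members in counts, so nothing is read from these numbers either.

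Markers of some other cell types also differed between the genotypes. The calls in each marker list stand beside 13.3% higher and 7.63% lower of all genes tested. The 12 macrophage markers summed to 93.8 to 136 CPM in WT and 894 to 1614 CPM in Ucp1Δ/Δ mice, and 9 of the 10 tested rose. The 8 stromal progenitor markers summed to 338 to 455 and 990 to 1765 CPM, and 7 rose. Endothelial markers summed to 212 to 243 CPM in WT and 254 to 313 CPM in Ucp1Δ/Δ mice, with 1 of 7 tested called higher, near the share of all genes. Mural markers summed to 207 to 298 and 317 to 359 CPM, with 2 of 8 called higher. The 12 lymphocyte markers summed to 3.67 to 9.41 CPM in WT and 8.78 to 20.5 CPM in Ucp1Δ/Δ mice, which overlap, with none tested. Their mean was higher in Ucp1Δ/Δ mice for 10 and lower for 1, and Cd79a was at 0 in all 8 mice. Without the filter edgeR called 1 of the lymphocyte markers higher and 0 lower. The 8 neutrophil markers summed to at most 7.62 CPM in any mouse with none tested, and the sums overlapped between genotypes. Of the neutrophil markers, Ly6g, Camp and Ngp were at 0 in all 8 mice. Brown adipocyte markers had 4 lower and 1 higher of 9 tested, and no muscle or erythroid marker was called in edgeR or reached an unadjusted p under 0.05, with sums that overlapped between genotypes. In bulk tissue, more dividing cells and more RNA per cell cannot be told apart, and the part of these markers in the proliferation genes was not tested. Ucp1Δ/Δ replicate 2 was the highest of the 8 mice in the macrophage, stromal and muscle sums as well as in the S phase and mitosis sums.

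The mitosis sum was 3.21 times as high in Ucp1Δ/Δ as in WT mice, the macrophage marker sum 9.98 times and the stromal marker sum 3.28 times. A value set against macrophage markers is therefore lower in Ucp1Δ/Δ mice for any sum whose ratio between genotypes is below theirs, and the following ratios only describe the sums side by side. Per 1000 macrophage marker counts it was 65.8 to 143 counts in WT and 26.0 to 38.4 counts in Ucp1Δ/Δ mice, and the S phase sum was 319 to 566 and 51.3 to 67.5 counts. Per 1000 stromal marker counts the mitosis sum was 20.9 to 48.4 counts in WT and 22.7 to 35.1 counts in Ucp1Δ/Δ mice, which overlap, and the S phase sum was 102 to 157 and 46.9 to 57.4 counts. These ratios carry no direction of the proliferation genes themselves.

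**Figure D4:**
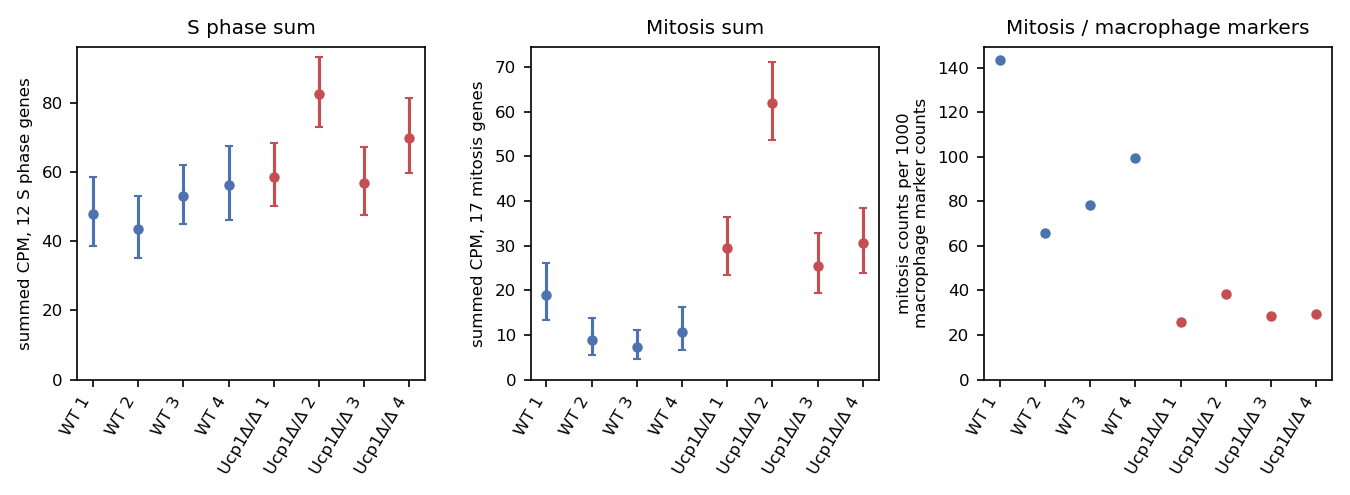
Summed CPM of the 12 S phase and 17 mitosis members in each mouse with 95% exact Poisson intervals, and the mitosis sum per 1000 macrophage marker counts, for 4 WT and 4 Ucp1Δ/Δ mice. The mitosis sum lies at 7.35 to 18.9 CPM in WT and 25.5 to 61.9 CPM in Ucp1Δ/Δ mice, and at 65.8 to 143 against 26.0 to 38.4 per 1000 macrophage marker counts, which themselves were 9.98 times as high in Ucp1Δ/Δ mice.

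Other genes of the same processes were counted from lists that hold none of the members. The calls in each of these lists stand beside 13.3% higher and 7.63% lower of all genes tested. Of 43 further replication genes, 19 were tested, 2 rose and 1 fell. Lig1, the ligase that joins Okazaki fragments, stood at 10.2, 8.96, 17.4 and 20.8 CPM in the WT mice and 23.0, 37.3, 35.5 and 32.2 CPM in the Ucp1Δ/Δ mice (log2FC 1.15, standard error 0.26, adjusted p = 0.00533 in edgeR). Dnmt1, which copies DNA methylation after replication, was 4.94 ± 2.43 CPM in WT and 11.6 ± 2.59 CPM in Ucp1Δ/Δ mice (SD, n = 4 each, log2FC 1.19, standard error 0.34, adjusted p = 0.0207 in edgeR), and its call was lost without WT replicate 1 or Ucp1Δ/Δ replicate 4 (adjusted p 0.0609 to 0.0775). Orc3, a subunit of the origin recognition complex, was 33.3 ± 5.30 CPM in WT and 19.3 ± 2.43 CPM in Ucp1Δ/Δ mice (SD, n = 4 each, log2FC -0.79, standard error 0.19, adjusted p = 0.00799 in edgeR).

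Of 51 further mitosis genes, 7 were tested and none was called by edgeR (1 was higher at an unadjusted p under 0.05). Without the filter edgeR called 4 higher and DESeq2 called 2, beside 9.81% and 10.5% of all genes in those fits. The 44 not tested had a higher mean in Ucp1Δ/Δ mice for 40 genes and a lower one for 4. Among all genes the filter removed, a higher mean was found for 64.2% of those with a count and 66.1% of those with at least 20 counts. The sum of the 44 was 27.4 to 37.2 CPM in WT and 52.7 to 96.1 CPM in Ucp1Δ/Δ mice, a ratio of 2.12. For the 24 further replication genes below the filter the sum was 32.1 to 43.0 and 43.8 to 47.6 CPM, a ratio of 1.19.

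A list of 30 genes held the E2F, RB and DREAM regulators, which hold cell cycle genes silent or switch them on. It also held other genes of cell cycle control, among them Cdc25a, Wee1, Skp2, further Cdkn genes and the Myc genes. Of these 30, 15 were tested, none rose and 2 fell in edgeR. At an unadjusted p under 0.05 in edgeR, 0 of the 15 were higher and 5 were lower. Their median log2FC was -0.41, beside -0.0087 over all genes tested. DESeq2 and edgeR without the filter called 1 higher each. Rb1, the retinoblastoma protein that restrains E2F, stood at 31.6, 31.4, 30.4 and 35.0 CPM in the WT mice and 18.8, 25.2, 17.6 and 21.5 CPM in the Ucp1Δ/Δ mice (log2FC -0.62, standard error 0.19, adjusted p = 0.0268 in edgeR), with a call lost without Ucp1Δ/Δ replicate 1, 3 or 4 (adjusted p 0.0561 to 0.0840). The Rb1 call was also lost in edgeR with total counts only (adjusted p = 0.0985) and with a filter of 10 counts in every mouse (adjusted p = 0.0590). Cdc25a, the phosphatase that activates Cdk2, was 21.1 ± 7.24 CPM in WT and 10.9 ± 2.94 CPM in Ucp1Δ/Δ mice (SD, n = 4 each, log2FC -0.98, standard error 0.27, adjusted p = 0.0174 in edgeR), with a call lost without WT replicate 3 or Ucp1Δ/Δ replicate 2 or 3 (adjusted p 0.0558 to 0.0853). Of 22 p53 targets, 14 were tested, and 3 rose and 3 fell. Btg2, an antiproliferative factor, stood at 6.63, 5.38, 6.68 and 9.12 CPM in the WT mice and 24.4, 20.8, 53.9 and 7.30 CPM in the Ucp1Δ/Δ mice and the genotypes overlapped (log2FC 1.93, standard error 0.45, adjusted p = 0.00584 in edgeR). Ccng1, cyclin G1, was 79.7 ± 32.7 CPM in WT and 42.2 ± 1.35 CPM in Ucp1Δ/Δ mice (SD, n = 4 each, log2FC -0.92, standard error 0.24, adjusted p = 0.0119 in edgeR). Zmat3 and Mdm2 also rose (log2FC 0.88 and 0.52) and Sesn2 and Ei24 also fell (log2FC -1.05 and -0.58), but Mdm2 lost its call whichever of the 8 mice was left out, Zmat3 in 7 of the 8 cases, and Sesn2 and Ei24 in 5 each (adjusted p 0.0501 to 0.104 in those cases, in edgeR).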

How the data were processed

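Bulk RNA-seq libraries of BAT from 4 WT and 4 Ucp1Δ/Δ mice were made with a digital mRNA service and sequenced single-end. The study's methods name bbduk for trimming, STAR for alignment to mm10 and HTseq-counts for counting, whereas the submitters' processing notes name Trimmomatic, HISAT2 and DESeq2. The authors deposited whole-number counts per Ensembl gene without normalization, and these were used as they stand. Strand setting and annotation release were not given in the sources used here. The deposited log2 values were not used. Groups and replicate numbers come from the labels, and symbols, found for 30934 of 31053 genes, from GENCODE.

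The tools were edgeR 4.0.16, DESeq2 1.42.0 and limma 3.58.1 under R 4.3.3, and scipy 1.17.1 under Python 3.11.15. edgeR's filterByExpr left 8930 genes. After TMM scaling the genotypes were compared by edgeR's quasi-likelihood test, and p-values were adjusted by Benjamini-Hochberg over all 8930 genes, with a threshold of 0.05. The standard error is the size of log2FC over the square root of F. CPM uses TMM-scaled library sizes. Sums over lists carry exact Poisson intervals, which cover counting error only, and no test. The fit was tested on simulated data with known changes.

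The members and lists were chosen with earlier results of these data known. Named with values were the members called, tested members without overlap, the most abundant member of each role, the 3 most counted members below the filter (Mki67, Cdk1 and Mcm4), and up to 3 called genes per direction in each further list. The others were named to account for every member, and the attention given to Tk1, Cenpf, Ube2c, Birc5 and Ccne1 was chosen after their values were seen. Within a genotype, chi-square over degrees of freedom between mice was 5.18 to 27.1, so every library was counted as its own sample. Alternatives were other scalings, DESeq2's Wald test, other filters, a replicate block, each mouse left out, other summaries of the sums and, chosen after seeing the data, the muscle marker level as a covariate.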

Additional observations from a re-analysis of the deposited data

Results flagged for a closer look

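Among 48 groups of 4 mice examined for a value far from the others, 2 stood out, where chance gives about 1 in 20 groups, or 2.4. Both concern Ucp1Δ/Δ replicate 2. Top2a was at 15.2 CPM in that mouse and at 5.43 to 6.01 CPM in the other 3 Ucp1Δ/Δ mice, a gap of 0.941 of the group's range, above the critical value of Dixon's test. The mitosis sum, which includes Top2a, was at 61.9 CPM in it and at 25.5 to 30.5 CPM in the others, a gap of 0.863 of the range. The same mouse had the highest macrophage, stromal and skeletal muscle marker sums of the 8, and their part in its proliferation values was not tested.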

How the results depend on the processing

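Pnpla2 kept its call and direction in every alternative. Of 28 other genes named with a test, 14 kept their side of the threshold and their direction in the alternatives that tested them (Ccnd1, Top2a, Stmn1 and Ccne2 were not tested under the strict filter of 10 counts in every mouse) and 14 changed in at least 1. At this depth 25 of the 42 members had too few counts to test. The count of members called higher was 4 and became 7 with DESeq2, whose own filtering kept 36 members (3 of the 17 tested in edgeR were called), 8 when every gene with a count was kept (4 of the 17), 0 under the strict filter, where none of the 4 genes could be tested, and 3 to 4 when a mouse was left out. The count called lower was 0 and became 2 without a filter, and 0 to 1 when a mouse was left out (1 without WT replicate 2 or 4). The median log2FC of the members tested, -0.065, was -0.10 for the same 17 genes with DESeq2 and -0.091 without a filter, but 0.63 and 0.76 over all 41 members with an estimate in those fits. It was -0.13 to -0.023 when a mouse was left out, and 0.078 with total counts only, a scaling that moved the median of all genes to 0.13. Over all genes, 1872 calls became 1195 under the strict filter (746 higher in place of 1191, 449 lower in place of 681), lower calls became 404 with total counts only, and leaving out a mouse gave 1345 to 2155 calls, 945 to 1304 higher and 400 to 851 lower.

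The log2 ratio of the mitosis sum, 1.68, was 0.69 as a mean of log2 CPM over the members, where genes at 0 weigh as much as others, and 1.31 to 2.04 when a mouse was left out. That of the S phase sum was 0.30 to 0.49, and the log2FC of Pnpla2 -2.68 to -2.54, when a mouse was left out. Further replication genes called higher were 1 under the strict filter and 1 to 2 with a mouse left out, and those called lower 2 without a filter, 2 with the muscle covariate and 1 to 2 with a mouse left out. Further mitosis genes called higher were 1 with total counts only, 2 with DESeq2, 4 without a filter, 1 under the strict filter and 0 to 2 with a mouse left out. In the list of E2F, RB, DREAM and other control genes, those called higher were 1 with DESeq2 and 1 without a filter. Those called lower were 1 with total counts only, 1 under the strict filter, 4 with the muscle covariate and 0 to 3 with a mouse left out. For p53 targets, leaving out a mouse gave 1 to 3 higher and 1 to 4 lower.

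log2FC values near 0 changed sign. Pcna was 0.13 with total counts only, 0.055 under the strict filter, 0.0032 with the muscle covariate and -0.15 to 0.11 with a mouse left out. Ccnd3, with a log2FC of -0.065, was 0.078 with total counts only, 0.0045 under the strict filter and -0.14 to 0.00046 with a mouse left out. Rrm1 was -0.32 to 0.037 with a mouse left out. Cdkn1a was -0.0056 with DESeq2 size factors, -0.025 with DESeq2's test, -0.010 without a filter, -0.0025 with the replicate block, -0.074 with the muscle covariate and -0.11 to 0.18 with a mouse left out. Except where stated, the cause of these shifts was not tested.

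Same-numbered mice are different animals, and the correlations of their deviations ran from -0.196 to 0.304 (mean 0.0654, 1 of 4 numbers best with its own partner), so the numbers do not pair the mice. With the replicate number as a block, 1719 genes were called in place of 1872, 3 members were called higher (Mcm3 had an adjusted p of 0.0521 in edgeR), and p53 targets had 1 higher and 1 lower.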
